A study of Mus musculus with 10 samples.

Results

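The 9 heat shock chaperone genes Hspa1a, Hspa1b, Hsp90aa1, Hsp90ab1, Hspa8, Hspa5, Dnajb1, Hspb1 and Hsph1 were followed by symbol through every cell class of the mouse medial prefrontal cortex. All 9 were among the 30406 genes measured in every library. The single-cell libraries came from males of the inbred strain C57BL/6N, over 2 months old and ranked with the tube test, in which paired animals meet in a narrow tube and the loser backs out. There were 5 libraries of rank 1 (dominant) mice and 5 of rank 4 (subordinate) mice, numbered 1 to 5 within each rank, and each pooled tissue of 2 to 3 mice. The groups differed in rank only, as far as the labels say, and no unranked control group was analysed here. Tissue was collected 1 day after the last tube test, and all libraries went through papain digestion at 37 °C for 60 min before capture of cells in 10x Genomics droplets. With pools as replicates, the spread between libraries is a spread between pools and preparations and not between single mice.

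Heat shock chaperones bind unfolded or partly folded proteins. HSP70 proteins hold short exposed stretches of a client with the help of J-domain partners and nucleotide exchange factors, HSP90 proteins act later on kinases and receptors, and small heat shock proteins keep clients from aggregating. The stress-inducible members are switched on within minutes to hours of heat or other protein damage by the transcription factor HSF1, which binds heat shock elements, inverted repeats of the unit GAA, whereas BiP, the HSP70 of the endoplasmic reticulum encoded by Hspa5, responds to misfolded proteins in that compartment through a different element. Cell dissociation at warm temperature is known to switch on immediate early and heat shock genes in brain cells.

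The promoters are shown because the members differ in which of these elements they hold. RefSeq windows from 250 bases before to 50 bases after an annotated start (assembly GRCm38.p6) were listed for 6 of the 9 members. Sequences read 5′ to 3′ on the gene's strand, and capitals mark a heat shock element of 2 inverted units, GAANNTTC or TTCNNGAA, or, in Hspa5, an endoplasmic reticulum stress element, CCAAT and CCACG separated by 9 bases. The windows are Hspa1a at chr17:34972107-34972406, Hspa1b at chr17:34959189-34959488 and Hsph1 at chr5:149636287-149636586 on the minus strand, and Hspb1 at chr5:135887669-135887968 and Hspa5 at chr2:34771840-34772139 on the plus strand.
Hspa1a: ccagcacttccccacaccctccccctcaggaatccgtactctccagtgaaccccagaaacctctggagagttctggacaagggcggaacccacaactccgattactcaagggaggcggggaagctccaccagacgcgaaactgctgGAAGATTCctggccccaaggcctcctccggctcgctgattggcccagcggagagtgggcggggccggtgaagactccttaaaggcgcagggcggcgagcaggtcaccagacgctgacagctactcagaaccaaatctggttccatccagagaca
Hspa1b: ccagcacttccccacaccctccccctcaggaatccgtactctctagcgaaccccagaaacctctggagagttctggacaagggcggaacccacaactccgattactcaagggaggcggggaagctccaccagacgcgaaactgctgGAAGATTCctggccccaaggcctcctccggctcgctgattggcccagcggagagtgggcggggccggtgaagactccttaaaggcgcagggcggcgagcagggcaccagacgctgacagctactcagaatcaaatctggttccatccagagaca
Hsph1: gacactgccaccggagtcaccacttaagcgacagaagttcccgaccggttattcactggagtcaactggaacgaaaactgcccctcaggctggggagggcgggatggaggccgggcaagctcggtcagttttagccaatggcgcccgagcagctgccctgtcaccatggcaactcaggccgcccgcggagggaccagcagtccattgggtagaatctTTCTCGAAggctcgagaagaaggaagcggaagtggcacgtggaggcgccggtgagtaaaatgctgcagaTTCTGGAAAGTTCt
Hspb1: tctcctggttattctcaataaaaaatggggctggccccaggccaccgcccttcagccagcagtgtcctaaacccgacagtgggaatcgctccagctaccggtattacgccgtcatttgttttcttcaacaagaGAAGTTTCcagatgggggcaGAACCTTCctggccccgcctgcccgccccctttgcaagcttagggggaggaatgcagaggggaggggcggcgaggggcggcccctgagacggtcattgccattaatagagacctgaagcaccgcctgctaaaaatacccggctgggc
Hspa5: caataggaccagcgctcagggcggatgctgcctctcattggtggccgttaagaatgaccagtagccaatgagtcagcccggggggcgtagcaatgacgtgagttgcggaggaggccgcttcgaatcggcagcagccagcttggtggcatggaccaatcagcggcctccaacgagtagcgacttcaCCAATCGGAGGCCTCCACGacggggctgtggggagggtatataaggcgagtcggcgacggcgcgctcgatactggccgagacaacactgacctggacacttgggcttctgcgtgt

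The Hspa1a and Hspa1b windows each held 1 heat shock element, starting 104 bases before the start site, and were identical at 296 of 300 positions (98.7%). Hspb1 held 2 elements, starting 117 and 97 bases before the start. Hsph1, listed with 2 start sites, held 3 overlapping or neighbouring matches, at -33, 36 and 41 relative to the start site of the window shown, and the last pair overlapped to form the 3-unit run TTCTGGAAAGTTC. No match lay in the 2 windows of Dnajb1 or in that of Hspa5, which held the endoplasmic reticulum stress element at -65. Over all 32851 promoter windows of this length, searched on both strands, 15.1% held the 2-unit heat shock element, 0.603% a 3-unit run and 0.119% the endoplasmic reticulum stress element. A match is a run of letters and not a shown binding site, and the missing match in Dnajb1 says only that these letters are not in that window.

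Hspa1a and Hspa1b, both single-exon genes and neighbours on the minus strand of chromosome 17, encode nearly the same inducible HSP70. On GRCm38 (GENCODE M21), Hspa1a spans chr17:34969190-34972156 and overlaps Gm20481, a gene on the other strand, and Hspa1b spans chr17:34956436-34959238. Their open reading frames were 99.6% identical, while the transcript after the open reading frame was 68.4% identical over the bases that aligned. How the authors' counting divided reads between the pair is thus uncertain, and values for the 2 genes are best read together. Hspa8, at chr9:40800984-40810087, hosts 3 small nucleolar RNA genes (Snord14c, Snord14d and Snord14e) on its own strand, and reads from these could be counted with it. The other 6 members overlap no annotated gene: Hsp90aa1 is at chr12:110690605-110702728, Hsp90ab1 at chr17:45567775-45573271, Hspa5 at chr2:34771970-34777547, Dnajb1 at chr8:83608193-83612653, Hspb1 at chr5:135887919-135889563 and Hsph1 at chr5:149614287-149636376.

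The libraries held from 4442750 to 29278466 unique molecular identifiers (UMIs, 1 per captured RNA molecule), and 1445 to 12647 cells were kept in each, with a median of 1328 to 2662.5 UMIs per kept cell. Libraries with replicate numbers 2 and 3 were the smallest of both ranks, with 4442750 to 8379003 UMIs against 12600414 or more in the others. Of 46285 kept cells, 43858 fell in 12 classes named from marker genes, and each name stands for cells resembling that class. The largest were excitatory neurons (16541 cells), astrocytes (8889), endothelial cells (4263), microglia (3636) and oligodendrocyte precursors (3271). Library pairs shared 0 to 40 kept barcodes, at most 0.879% of the smaller library. Levels are CPM, the UMIs of a gene summed over the cells of a class in 1 library and scaled to a common total, each from at least 20 cells. A lower level in a class cannot be told apart from a larger output of other RNA by that class.

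The inducible HSP70 gene Hspa1a was highest in vascular cells and microglia. Its mean level was 3063 ± 3071 CPM (SD, n = 10) in pericytes, the contractile cells on capillaries, 1537 ± 1207 (n = 10) in endothelial cells, 1295 ± 1199 (n = 10) in microglia and 666 ± 315 (n = 8) in smooth muscle cells, against 46.5 ± 28.6 (n = 10) in excitatory neurons and 37.9 ± 15.8 (n = 10) in astrocytes. In pericytes, replicates 1 to 5 of rank 1 gave 329, 6958, 7124, 1326 and 704 CPM, and those of rank 4 gave 277, 4104, 7592, 818 and 1401. The pericyte values of every library lay above the excitatory value of the same library, and the ranks overlapped. On the scale of log2(CPM + 1), pericytes exceeded excitatory neurons of the same library by 5.36 ± 1.03 (SD, n = 10; exact sign-flip test, two-sided, p = 0.00195, the smallest that 10 libraries allow), endothelial cells by 4.67 ± 0.91, microglia by 4.16 ± 1.25 and smooth muscle cells by 3.58 ± 0.74 (n = 8). This comparison was added after levels had been seen, with p-values adjusted by the Benjamini-Hochberg method over all genes and 9 classes. It called Hspa1a higher in 8 of the 9 classes, the exception being astrocytes.

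Cells with an Hspa1a UMI were counted after each cell was thinned to 500 UMIs. In pericytes 14.5%, 64.3%, 55.4%, 26.6% and 16.8% of cells in rank 1 libraries held at least 1 such UMI, and 11.6%, 62.5%, 59.6%, 19.0% and 34.1% in rank 4 libraries. The 95% Wilson interval was widest for rank 1 replicate 3, at 43.3% to 66.8%, and these intervals cover counting error only. Excitatory neurons, which served as the low class, had 0.890% to 4.21% and astrocytes 0.626% to 3.31%. The pericyte share lay above both in every library. Free RNA was not measured, and its part in these shares was not tested. Without thinning the pericyte shares ran from 23.5% to 73.9% at median depths of 873.5 to 2336 UMIs, and the excitatory shares from 6.82% to 16.7% at 1660 to 7461 UMIs.

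Hspa1b, counted at lower levels, was highest in endothelial cells. Its mean was 189.5 ± 97.7 CPM in endothelial cells, 170.4 ± 88.8 in pericytes and 119 ± 114 in microglia (SD, n = 10 each), against 8.52 ± 3.71 in excitatory neurons (n = 10). Endothelial values were 17.7, 207, 154, 307 and 253 in rank 1 replicates 1 to 5 and 29.8, 289, 217, 208 and 213 in rank 4. Replicate 1 was lowest in both ranks, and all other libraries of the ranks overlapped. Hspa1b was called higher than in excitatory neurons in 4 classes, by 4.06 in endothelial cells, 3.83 in pericytes, 3.27 in microglia and 2.32 in smooth muscle cells (n = 8). In inhibitory neurons Hspa1b was called lower, at -0.76 ± 0.92, where Hspa1a was called higher, at 0.41. That value of Hspa1b rests on 0 to 24 UMIs per library, with 0 in rank 1 replicate 1 and rank 4 replicate 2, so its size depends on the added 1 CPM.

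Hspb1, which encodes the small heat shock protein HSP27, was highest in the 3 classes of the vessel wall. Endothelial cells had 1098, 1334, 1439, 2701 and 2229 CPM in rank 1 replicates 1 to 5 and 1239, 1894, 1876, 2303 and 3316 in rank 4. Smooth muscle cells had 950.5 to 2513 CPM (8 libraries) and pericytes 549.6 to 1911, whereas no library exceeded 119 CPM in microglia, and the mean was 11 ± 5.58 CPM in excitatory neurons and 15.3 ± 9.22 in astrocytes (SD, n = 10 each). Endothelial cells exceeded excitatory neurons by 7.40 ± 0.73 log2 units, smooth muscle cells by 7.0 ± 0.56 and pericytes by 6.48 ± 0.74 (exact sign-flip tests, adjusted p of 0.00599, 0.0172 and 0.00599, higher in all libraries). After thinning, 27.5% to 66.0% of endothelial cells and 22.9% to 48.0% of pericytes held an Hspb1 UMI, against 0 to 1.65% of excitatory neurons. The lowest of these, 0 of 540 cells in rank 4 replicate 2, has a Wilson upper bound of 0.706%. Unthinned shares were 58.6% to 82.7% in endothelial cells and 2.04% to 5.86% in excitatory neurons.

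**Figure D1:**
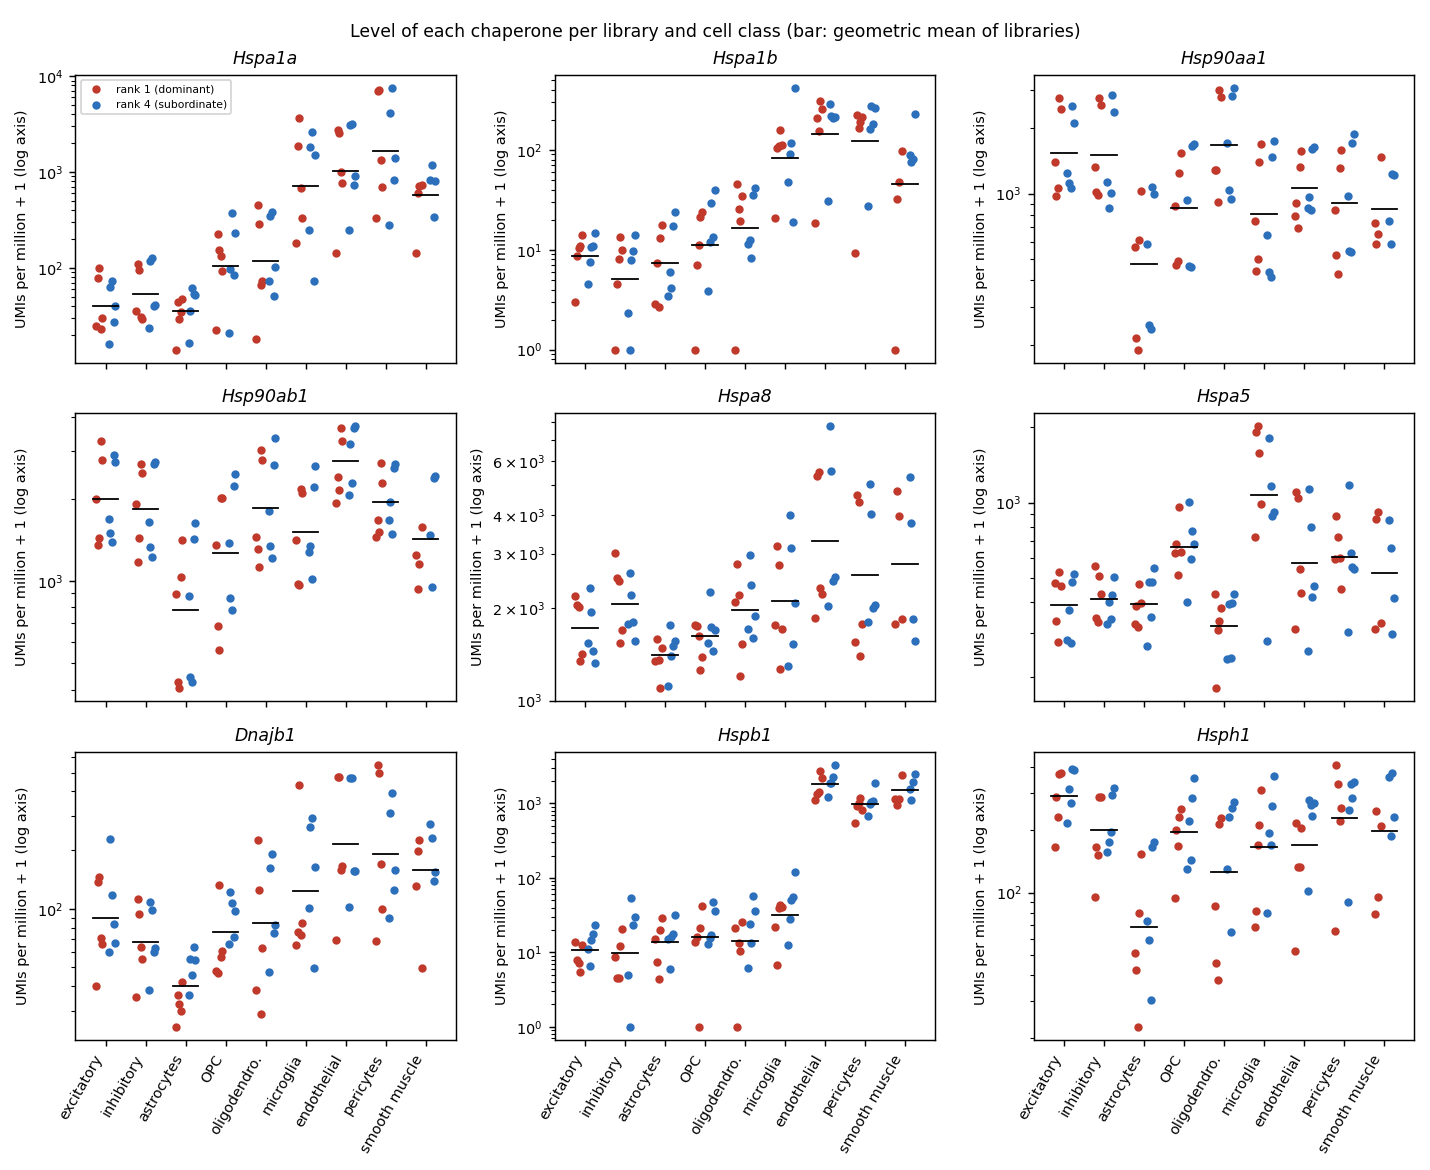
Level of each chaperone per library, as CPM + 1 on a log axis, in 9 cell classes (OPC, oligodendrocyte precursors; oligodendro., oligodendrocytes). Red points are rank 1 and blue points rank 4 libraries, in order of replicate number, and the black bar is the geometric mean. Hspa1a, Hspa1b and Hspb1 span orders of magnitude between classes, while Hsp90ab1 and Hspa8 stay within a narrow band.

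The HSP90 genes had another distribution. Hsp90aa1, the inducible cytosolic HSP90, was highest in oligodendrocytes (1883 ± 921 CPM), inhibitory neurons (1687 ± 836) and excitatory neurons (1673 ± 712), and lowest in astrocytes (574 ± 353; SD, n = 10 each). Excitatory neurons had 1391, 975, 1061, 2765 and 2448 CPM in rank 1 and 1249.5, 1117, 1060.2, 2542 and 2126 in rank 4. Replicates 4 and 5 were high and replicates 2 and 3 low in both ranks, and the ranks overlapped. Hsp90aa1 was called lower than in excitatory neurons in 7 of 9 classes, with the largest difference in astrocytes (-1.72 ± 0.56 log2 units, lower in 10 of 10 libraries, exact p = 0.00195). Hsp90ab1, the form expressed constitutively, was called lower in 5 classes, by 1.34 in astrocytes, and higher in 1, endothelial cells, by 0.46 ± 0.34 (9 of 10 libraries). Its endothelial level was 2824 ± 720 CPM (n = 10).

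Hspa8, the constitutive cytosolic HSP70, was measured in all classes at means of 1419 CPM (astrocytes) to 3756 CPM (endothelial cells) among classes with 7 or more libraries. Endothelial cells had 1847, 5339.9, 5518, 2324 and 2210.3 CPM in rank 1 and 2029, 7766, 5565, 2439 and 2518 in rank 4. Replicates 2 and 3 were the high ones in both ranks, and the ranks overlapped. The endothelial excess over excitatory neurons was 0.94 ± 0.61 log2 units (9 of 10 libraries). Dnajb1, a J-domain partner of HSP70 also known as HSP40, was higher than in excitatory neurons in endothelial cells (1.27 ± 0.43), pericytes (1.10 ± 0.58) and smooth muscle cells (0.70 ± 0.64, n = 8), and lower in astrocytes (-1.15 ± 0.70) and inhibitory neurons (-0.41 ± 0.31). Hsph1, the HSP110 nucleotide exchange factor that resets HSP70, was called lower than in excitatory neurons in 7 classes and higher in none. Its mean was 300 ± 80.2 CPM in excitatory neurons and 84.2 ± 57.6 in astrocytes (n = 10 each), a difference of -2.09 ± 0.81 log2 units.

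Hspa5 (BiP) stood highest in microglia among the classes with 7 or more libraries. Microglia had 726, 1917, 2023, 1586 and 983 CPM in rank 1 and 278, 1806, 1163, 884 and 919.7 in rank 4. The excess over excitatory neurons was 1.47 ± 0.94 log2 units in microglia (9 of 10 libraries) and 0.78 ± 0.35 in oligodendrocyte precursors (10 of 10), while oligodendrocytes were lower by 0.28 (called, 8 of 10 libraries). In the 2 libraries with enough perivascular macrophages, the other brain macrophages in the data, Hspa5 was at 1398 and 1861 CPM, Hspa8 at 4628 and 6918 and Dnajb1 at 472 and 578.

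In all, 53 of the 81 pairs of a member and a class differed from excitatory neurons, 29 higher and 24 lower. Over all genes the same test called 56.9% of pairs (72.3% in endothelial cells, 59.1% in pericytes and 66.5% in microglia), so most genes differed between these classes and the members' count is read against that share. The median gene itself lay below its level in excitatory neurons in 8 of the 9 classes, from -0.07 in inhibitory neurons to -0.92 in smooth muscle cells, and at 0.041 in oligodendrocyte precursors. Some members called lower therefore lay above the median gene of the class. These were Hsp90ab1 in microglia (-0.40, median gene -0.63), Hspa5 in oligodendrocytes (-0.28, median gene -0.69) and, in smooth muscle cells with the median gene at -0.92, Hsp90aa1 (-0.80), Hsp90ab1 (-0.42) and Hsph1 (-0.57). No member called higher lay below the median gene of its class. Neighbouring classes in a gene's own order of levels were seldom told apart. Of 9 neighbouring pairs each, 1 differed for Hsp90aa1 (microglia above astrocytes), Hsp90ab1 (oligodendrocyte precursors above astrocytes), Hspb1 (pericytes above microglia, by 4.92 log2 units) and Hsph1 (oligodendrocytes above astrocytes), each in 10 of 10 libraries (exact sign-flip test, p = 0.00195, adjusted p = 0.0379 over all genes and pairs). No pair passed for Hspa1a, Hspa1b, Hspa8, Hspa5 or Dnajb1, and over all genes 5.15% of such pairs passed. With any single library left out no such pair passed for any member, as 9 libraries cannot reach so low a p. Pairs with smooth muscle cells (at most 8 libraries) or committed oligodendrocyte precursors (at most 7) could not pass either. Their smallest possible p, 0.00781 and 0.0156, gave adjusted p of 0.0925 and 0.146 (exact sign-flip test). The order of Hspa1a in pericytes, endothelial cells and microglia was thus not told apart in these tests. The place of smooth muscle cells in it could not be tested at this threshold. With at least 50 cells per library, some Hspa1a pairs were told apart, as given in the section on processing.

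**Figure D2:**
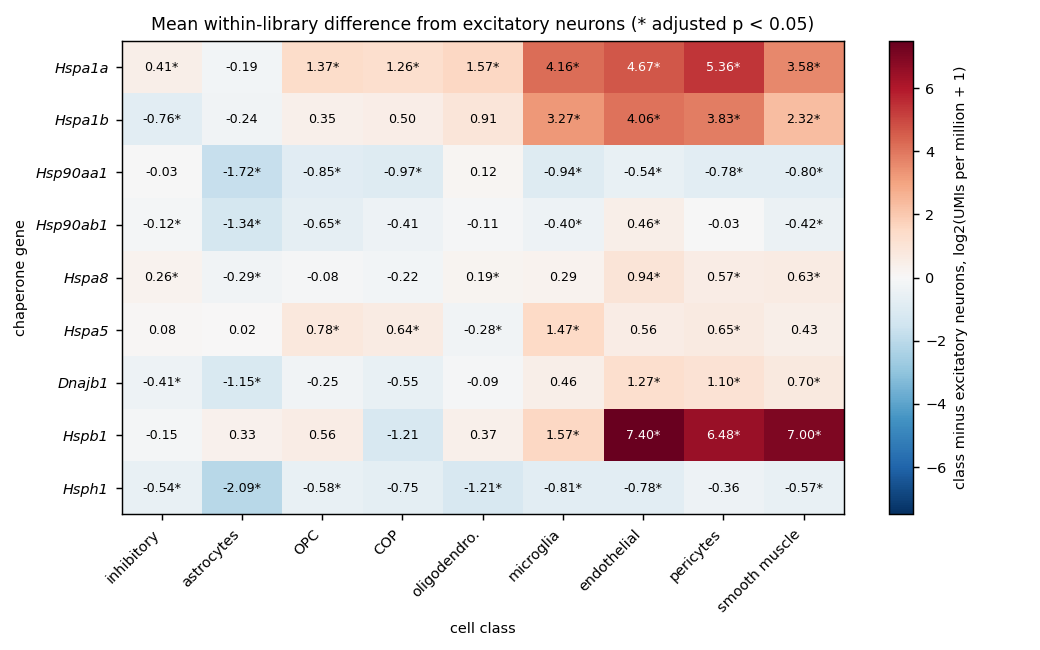
Mean difference of 9 classes from excitatory neurons of the same library on the log2(CPM + 1) scale, for each chaperone (rows) and class (columns; OPC, oligodendrocyte precursors; COP, committed oligodendrocyte precursors). Stars mark adjusted p under 0.05. The strongest reds are Hspb1 at 7.40 in endothelial cells, 7.0 in smooth muscle cells and 6.48 in pericytes, then Hspa1a at 5.36 in pericytes, and the astrocyte column is blue for Hsp90aa1, Hsp90ab1, Dnajb1 and Hsph1.

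Among excitatory subclasses named by layer and projection, Hspa1a had a mean of 68.6 ± 43.5 CPM in L2/3 intratelencephalic neurons (n = 10) and 20.8 ± 11.6 in L6 corticothalamic neurons (n = 8). Dnajb1 had 144 ± 80.7 and 67.9 ± 35.0 in the same subclasses. Hsp90ab1 ran the other way, with 1834 ± 653 and 2716 ± 921 CPM. Replicate 2 of both ranks had under 20 L6 corticothalamic neurons and is in the first mean of each gene only. In the 8 libraries with both subclasses, these directions held in 8 of 8 for each of the 3 genes. These subclass levels were not tested against each other.

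Within a class, the members differed between replicate numbers, and libraries with the same number deviated together across ranks. Hspa1a was lowest in replicate 1 in 8 of 8 classes tested and highest in replicate 2 or 3 in 7 of 8. Between the highest and lowest replicate mean it ranged over 4.6 log2 units in pericytes (place 296 of 5057 genes, median gene 1.50) and 3.95 in endothelial cells (place 333 of 9327, median gene 1.14). In microglia, the rank 1 libraries gave 182, 1877, 3628, 679 and 329 CPM of Hspa1a in order of number, and the rank 4 libraries 248, 1843, 2592, 72.7 and 1494. Hspa8 was highest in replicate 2 or 3 in 8 of 8 classes and Dnajb1 in 7 of 8. In endothelial cells Dnajb1 had 68.2, 472, 472, 158 and 165 CPM in rank 1 and 101, 469.9, 468, 156 and 156 in rank 4. The high values were again those of replicates 2 and 3, and the ranks overlapped.

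The HSP90 genes and Hspb1 had a different order. Hsp90aa1 and Hsp90ab1 were highest in replicate 4 or 5 in 8 of 8 classes, and Hspb1 in 7 of 7. Hsph1 was highest there in 6 of 8 classes and Hspa1b in 6 of 6. The effect of replicate number was called in 61 of 69 member and class pairs (edgeR quasi-likelihood F test, adjusted p under 0.05, a comparison added after values had been seen), against 54.4% of all gene and class pairs. It was called for Hspa1a, Hsp90aa1 and Hsph1 in 8 of 8 classes and for Hspa5 in 5 of 8. Replicates 4 and 5 were also counted with another software version than replicates 1 to 3 (4.0.0 against 3.1.0, per the file headers), so the version and the number cannot be told apart between these sets. Within replicates 1 to 3, 48 of 65 member pairs were called, against 33.1% of all pairs.

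**Figure D3:**
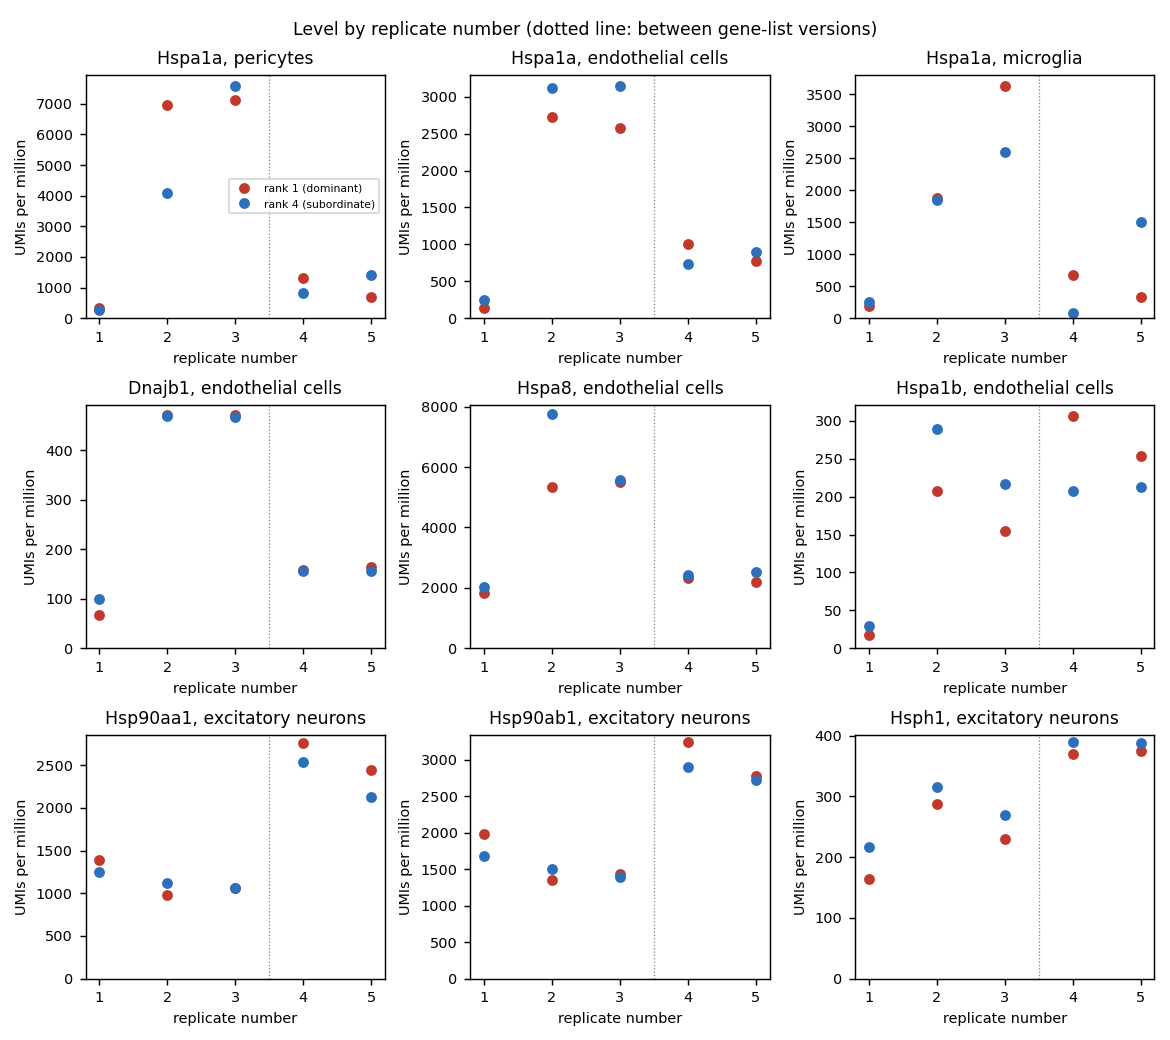
Level (CPM, linear axis from 0) by replicate number for 9 pairs of a chaperone and a class, rank 1 in red and rank 4 in blue. The dotted line separates replicates 1 to 3 from 4 and 5, counted with different software versions. Hspa1a, Dnajb1 and Hspa8 stand highest at replicates 2 and 3 in both ranks (Hspa1a in pericytes 4104 to 7592), and Hsp90aa1 at 4 and 5.

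Other measures moved with these levels. The summed level of 12 immediate early genes, transcripts that appear within minutes of a stimulus, was 6477, 18418, 20582, 11584 and 8053 CPM in endothelial cells of rank 1 replicates 1 to 5 and 5034, 18372, 17735, 7259 and 8660 CPM in rank 4. In pericytes it was 4815, 16030, 19314, 7072 and 4602 CPM in rank 1 and 3584, 15024, 14177, 4231 and 5863 in rank 4. In these classes, and in microglia and excitatory neurons, it was highest in replicate 2 or 3 of both ranks. In astrocytes it was highest in replicate 5 of both ranks (1610.4 and 1239 CPM, against 743 to 1009.7 in replicates 2 and 3). The libraries of these numbers were also the smallest. The median mitochondrial share of their kept cells was 3.91% to 4.5%, against 3.5% to 10.8% in the other libraries. The summed level of 8 excitatory neuron markers in pericytes was 516, 137, 121, 495 and 890 CPM in rank 1 replicates 1 to 5 and 706, 73.3, 184, 1124 and 1153 in rank 4. In microglia it was 551, 126, 143, 571 and 1294 CPM in rank 1 and 573, 102, 117, 1544 and 1013 in rank 4. In these classes, and in astrocytes and endothelial cells, the markers were lowest in replicates 2 and 3 and highest in replicate 4 or 5 of both ranks, as Hsp90aa1 and Hsp90ab1 were highest in 4 or 5. The part of these measures in the replicate pattern was not tested.

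The share of Hspa1b among the UMIs of Hspa1a and Hspa1b together, over all named classes, was 7.90%, 5.77%, 4.43%, 22.4% and 25.7% in rank 1 replicates 1 to 5 and 13.1%, 7.18%, 5.14%, 22.9% and 21.1% in rank 4. All 4 libraries counted with version 4.0.0 lay above 20%, and the 6 counted with 3.1.0 below 15%, with Wilson intervals that did not meet. The split between the pair therefore went with the version, which cannot be told apart from the replicate number.

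**Figure D4:**
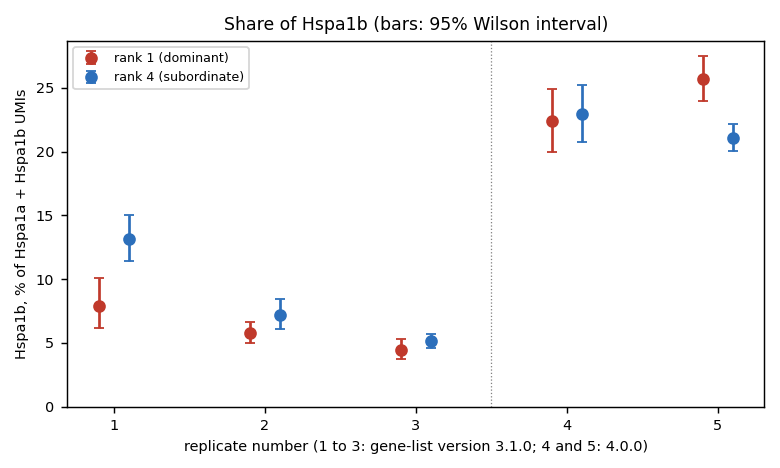
Hspa1b as a percentage of Hspa1a plus Hspa1b UMIs over all named classes, per library, against replicate number (rank 1 red, rank 4 blue; bars are 95% Wilson intervals). The 4 libraries right of the dotted line, counted with version 4.0.0, sit between 21.1% and 25.7%, and the 6 on its left between 4.43% and 13.1%.

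Members also varied together between libraries within classes. Each class's mean was removed from the log2 levels, so that differences between classes play no part, and over the 88 pairs of a class and a library Pearson's r was 0.93 between Hsp90aa1 and Hsp90ab1, 0.81 between Hspa1a and Dnajb1, 0.73 between Hspa8 and Dnajb1 and 0.67 between Hspa1a and Hspa8, and -0.58 between Hsp90aa1 and Hspa8. These points share libraries, depth and classes, and the values are descriptions. Of 4318 genes at 20 CPM or more in every class, the genes most like Hspa1a by this measure were Jund (0.86), Dnajb1 (0.81) and Ccl4 (0.79). Those most like Hsp90aa1 were Hsp90ab1, Gm42418 and mt-Nd4l (0.93, 0.93 and 0.92). For Hspa5 they were Ifrd1, Pdia3 and Dnaja1 (0.74, 0.69 and 0.67). For Hsph1 they were Smarca5, Wac and Pafah1b1 (0.66, 0.65 and 0.65). Hspb1 and Hspa1b themselves did not reach 20 CPM in every class and had 0 UMIs in some libraries, which limits their values. The genes listed were Gm47283, Ncl and D17Wsu92e for Hspb1 (0.68, 0.66 and 0.66) and Smarca5, Hspd1 and Txlna for Hspa1b (0.69, 0.68 and 0.68). The nearest to Hsp90ab1 after Hsp90aa1 were Gm42418 (0.89) and Hsp90b1 (0.88), and Dnajb1 was most like Hspa1a (0.81), Jund (0.80) and H3f3b (0.77).

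Hspb1 and Hspa1a were also counted in the same cells, in pericytes, endothelial cells and microglia. In pericytes thinned to 500 UMIs, Hspb1 was found in a larger share of cells with an Hspa1a UMI than of cells without in each of the 10 libraries, from 25.0% against 22.5% (rank 1 replicate 1, 24 and 142 cells) to 67.4% against 37.9% (rank 4 replicate 5, 135 and 261 cells). In endothelial cells this held in 9 of 10 libraries, as in rank 1 replicate 2, where the shares were 57.7% and 30.8%. The exception was rank 1 replicate 1, with 26.9% and 27.5%. In microglia, where Hspb1 was rare, it held in 5 of 10. Other members counted in this way in pericytes were less uniform. Hspa8 was in a smaller share of cells with an Hspa1a UMI in rank 1 replicate 1 and rank 4 replicates 1, 2 and 4. In rank 4 replicate 1 the shares were 42.9% and 63.1%. The share was also smaller for Hspa1b in replicate 1 of both ranks and for Dnajb1 in rank 4 replicate 1. In the remaining pericyte libraries it was larger. Cells of a library are not replicates, so these shares are descriptions.

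Rank was then compared within each class, over libraries. None of the 76 member and class pairs passed between rank 1 and rank 4 with the gene-list version as a covariate (edgeR quasi-likelihood test, Benjamini-Hochberg adjustment over all genes), and 2, both of Dnajb1, had an unadjusted p under 0.05. Over all genes 0 of 69803 tests passed (0%), with 1633 at an unadjusted p under 0.05. The level in rank 1 was the lower one in 58 of the 76 pairs and the higher one in 18, with a median of -0.17 log2 units. The median gene lay between -0.020 and 0.017 in these classes. The ranks overlapped in every pair. The shares of all genes that were lower in rank 1 or overlapped were not counted. The 76 pairs share the same libraries, so these counts are descriptions. In excitatory subclasses 18 of 38 were lower and 20 higher in rank 1, with a median of 0.048, and 0 passed, against 0 of 41544 (0%) over all genes.

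Averaged over 8 classes, no member passed either. Rank 1 minus rank 4 was -0.10 log2 units for Hspa1a (exact permutation test, two-sided, p = 0.913), -0.59 for Hspb1 (exact p = 0.278) and -0.41 for Hsph1 (exact p = 0.302), and the 6 others lay between -0.29 (Dnajb1) and 0.13 (Hspa5). With 1 library left out these ran from -0.83 to -0.35 for Hspb1, -0.60 to -0.19 for Hsph1 and -0.53 to -0.052 for Dnajb1. By replicate number, the average was lower in rank 1 in 5 of 5 pairs for Hsph1 and Hsp90ab1 and in 2 to 4 of 5 for the others. Over all 12145 genes 0% passed adjustment, the median gene was at -0.07, and 5 against 5 libraries cannot give a p below 0.00794.

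Because libraries of one number moved together, the fit was also made with the replicate number as a block, which compares each rank 1 library with its rank 4 partner. Then 3 of 78 pairs passed, all lower in rank 1, and 18 had an unadjusted p under 0.05, against 0.368% of 74668 tests called and 9.75% at an unadjusted p under 0.05 over all genes. For Dnajb1 in astrocytes, rank 1 libraries gave 23.8, 35.0, 31.6, 28.9 and 41.2 CPM in order of number, and rank 4 libraries 35.0, 54.5, 44.5, 62.3 and 53.7. It was lower in rank 1 in 5 of 5 pairs, although the groups overlapped, with means of 32.1 ± 6.52 and 50.0 ± 10.5 CPM (SD, n = 5 each). The difference was -0.63 log2 units with the block (SE 0.16, edgeR adjusted p = 0.0349) and -0.65 without (SE 0.19, edgeR adjusted p = 1.00).

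Hsph1 passed in astrocytes and in endothelial cells. In astrocytes it was at 50.2, 41.4, 21.6, 78.9 and 151 CPM in rank 1 and 72.0, 57.8, 29.5, 165 and 174 in rank 4, and in endothelial cells at 51.4, 214, 131, 132 and 204 in rank 1 and 101, 277, 262, 232 and 270.0 in rank 4. Each rank 1 library lay below its partner, and in both classes the groups overlapped. The blocked differences were -0.55 (SE 0.14, edgeR adjusted p = 0.0391) and -0.69 log2 units (SE 0.14, edgeR adjusted p = 0.0184), and -0.50 (SE 0.27) and -0.65 (SE 0.39) without the block, where neither passed. With 1 library left out the unblocked values ran from -0.66 to -0.34 in astrocytes and from -0.95 to -0.40 in endothelial cells. In astrocytes 0.974% of all genes were called lower in rank 1 with the block, and in endothelial cells 0.289%. Without replicate 1 the adjusted p of the blocked edgeR fit was 0.157 for Dnajb1 and 0.188 for Hsph1 in astrocytes and 0.149 for Hsph1 in endothelial cells. Without replicates 2 and 3 these were 0.123, 0.130 and 0.202, so no call was left in either fit. Both fits hold fewer libraries, so a larger p alone cannot tell a smaller difference from fewer samples.

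Excitatory neuron markers were also lower in rank 1 in these classes. The summed level of 8 excitatory neuron markers in astrocytes was 428, 145, 148, 327 and 739 CPM in rank 1 and 635, 154, 178, 836 and 859.8 in rank 4, lower in rank 1 in 5 of 5 pairs, and in endothelial cells 478, 88.9, 75.4, 219 and 789.5 against 624, 88.8, 124, 767 and 1035, lower in 4 of 5 pairs. With the block, 7 of 7 markers tested were lower in rank 1 in each class, of which 2 passed in astrocytes and 1 in endothelial cells, with medians of -0.49 and -0.48 log2 units, and no marker was at 0 in every library. Hsph1 itself was higher in excitatory neurons than in either class, and Dnajb1 higher than in astrocytes. The part of neuronal RNA in the 3 calls was not tested.

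**Figure D5:**
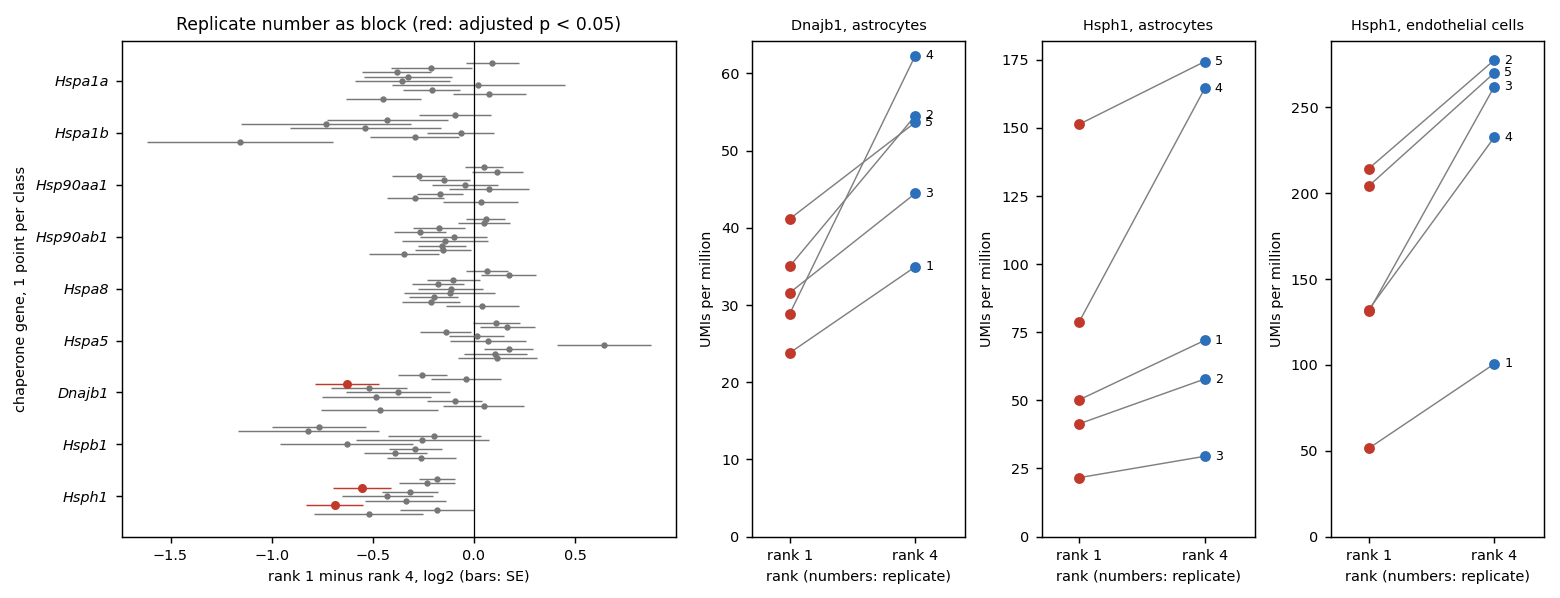
Left, rank 1 minus rank 4 (log2, bars are SE) for each chaperone, 1 point per class, with the replicate number as a block; red marks adjusted p under 0.05. Right, the 3 red pairs as CPM on axes from 0, with lines joining libraries of the same replicate number: every line goes up from rank 1 to rank 4, while the groups overlap (Dnajb1 in astrocytes 23.8 to 41.2 against 35.0 to 62.3).

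Beyond these 3 pairs, values are given without a call. Without the block, Hsph1 was lower in rank 1 in 9 of 9 classes, the called ones included, and Hspb1 in 8 of 8. Their medians were -0.37 and -0.32 log2 units, beside median genes of -0.020 to 0.017, and the classes share the same libraries. For Hspb1 the class with the smallest p without the block was inhibitory neurons (-0.96, SE 0.49, and -1.34 to -0.48 with 1 library left out). There it was lower in rank 1 in 3 of 5 pairs. This value rests on 1 to 22 UMIs per library in rank 1 and 0 to 53 in rank 4. With the block it was -0.82 (edgeR adjusted p = 0.531). Hspa5 leaned the other way, and in microglia was higher in rank 1 in 5 of 5 pairs (0.54 log2 units, SE 0.49, edgeR adjusted p = 1.00, and 0.27 to 0.85 with 1 library left out; with the block 0.64, adjusted p = 0.439). Hspa1a and Hspa1b had their smallest p in astrocytes, at -0.47 (SE 0.36) and -0.36 (SE 0.35). With 1 library left out these ran from -0.70 to -0.10 and from -0.53 to -0.15. No other member was near a call without the block, where the class with its smallest p is given. Hsp90aa1 was at -0.17 in endothelial cells (edgeR unadjusted p = 0.299, and -0.23 to -0.11 with 1 library left out). Hsp90ab1 was at -0.30 in smooth muscle cells (edgeR unadjusted p = 0.226, lower in 2 of 3 pairs, and -0.49 to -0.15 likewise). Hspa8 was at -0.17 in oligodendrocyte precursors (edgeR unadjusted p = 0.360, and -0.23 to -0.11 likewise). With the block the smallest edgeR adjusted p over classes was 0.353 for Hsp90aa1 and 0.586 for Hsp90ab1 and Hspa8. Among excitatory subclasses, where 0.338% of all tests passed with the block, 0 of 39 member tests did.

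The chaperones' partners, taken from 8 lists, were compared between ranks in the same fits. In the fit with the version covariate 0 genes of any list passed in a class or subclass. With the block, where 0.368% of class tests and 0.338% of subclass tests passed over all genes, 0 of 87 class and 1 of 49 subclass tests on the cytosolic HSP70 family and its exchange factors passed, Hspa2 in L5 intratelencephalic neurons (0.99 log2 units higher in rank 1, edgeR adjusted p = 0.00429), and 1 of 96 class tests on J-domain proteins, Dnajc6 (auxilin, which uncoats clathrin vesicles) in astrocytes (-0.86, edgeR adjusted p = 0.0446). In astrocytes the excitatory neuron markers were lower in rank 1 in the same fit (7 of 7, median -0.49), and their part in this call and in the astrocyte call of Nr4a1 was not tested. The HSP90 co-chaperones, other small heat shock proteins, mitochondrial chaperones with the cytosolic chaperonin, endoplasmic reticulum chaperones and heat shock factors gave 0 calls. With the block, the median over class tests was -0.20 log2 units for small heat shock proteins (21 tests), -0.11 for J-domain proteins (96), -0.10 for HSP90 co-chaperones (100), -0.05 for heat shock factors (23) and -0.03 for the HSP70 list (87). It was 0.01 for mitochondrial chaperones and the chaperonin (98), 0.02 for endoplasmic reticulum chaperones (126) and 0.07 for immediate early genes (104), beside median genes of -0.03 to 0.01 in the classes. In the fit with the version covariate, the co-chaperone gene with the smallest p was Ptges3 in microglia (-0.60, SE 0.22), and that of the endoplasmic reticulum list was Pdia6, a disulfide isomerase, in microglia (0.76, SE 0.32). In the HSP70 list it was Bag5, an exchange factor, in pericytes (-0.64, SE 0.34), and in the J-domain list Dnajb5 in excitatory neurons (-0.25, SE 0.13). In the small heat shock protein list it was Hspb2 in pericytes (-0.51, SE 0.33). In the list of mitochondrial chaperones and the chaperonin it was Hspe1, which encodes the mitochondrial HSP10, in excitatory neurons (-0.26, SE 0.12), and among heat shock factors Hsf2 in endothelial cells (0.50, SE 0.28). In the immediate early list it was Btg2 in excitatory neurons (0.73, SE 0.21). None of these passed in that fit. Of 104 class tests on immediate early genes, 1 was called higher with the block, Btg2 in excitatory neurons (0.73, edgeR adjusted p = 0.0236), and 3 lower: Nr4a1 in astrocytes (-0.70) and excitatory neurons (-0.54) and Egr1 in excitatory neurons (-0.54). Of 53 subclass tests 3 were called higher, Btg2 in L6 corticothalamic (1.09) and L2/3 intratelencephalic neurons (0.78) and Ier2 in L6 corticothalamic neurons (0.80), and 2 lower, Egr1 (-0.87) and Nr4a1 (-0.80) in L2/3 intratelencephalic neurons.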

How the data were processed

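Raw UMI counts per gene and barcode were used as deposited by the authors. Per the submitters' processing notes they came from Cell Ranger 4.0.0 and mm10, while per the file headers replicates 1 to 3 were written by version 3.1.0 and replicates 4 and 5 by 4.0.0. Only the 30406 genes in both gene lists were used.

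Cells with at least 500 genes and at most 15% mitochondrial UMIs were kept (46285 of 64937 barcodes). Scrublet, as built into scanpy 1.11.5, removed 3095 doublets at an expected rate of 0.06; in 2 libraries its threshold was replaced by the median of the others, 0.247. Leiden clustering (2000 variable genes without the members and related chaperones, 30 principal components, resolution 1, Python 3.11.15) gave 27 clusters, named from marker lists with a score of at least 1, and 5 stayed unnamed. Excitatory neurons were clustered again.

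Counts were summed per library and class (at least 20 cells, at least 3 libraries per rank) and tested in edgeR 4.0.16 (R 4.3.3) by the quasi-likelihood method with the version as covariate, at an adjusted p under 0.05. The alternatives were DESeq2 1.42.0, other size factors, filters and pseudocounts (1 CPM in the main analysis, 10 as alternative), each library left out, and the replicate number as a block. Same-numbered libraries deviated together in every class (r of 0.33 to 0.93 across genes) and subclass (0.29 to 0.84) tested, so the numbers were taken to pair the samples. A rank 1 library correlated best with the rank 4 library of its own number for 5 of 5 numbers in excitatory neurons, 4 of 5 in endothelial cells and pericytes and 3 of 5 in the other 5 classes, astrocytes included. This pairing comes from the data, since the labels give no shared litter or day. Differences between classes used exact sign-flip tests within libraries on log2(CPM + 1). The fixed plan adjusted the test of neighbouring classes over the members, but it was adjusted here over all genes. Scripts were tested on simulated data. For each member, the class with the smallest p, any class called and the 3 most alike genes are named, except that those of Hspa8 are not reported here; for each list, the gene with the smallest p. The members and lists were chosen with earlier results of these data known. Smooth muscle cells of rank 1 replicate 4 and rank 4 replicate 1 had too few cells and were left out. Nothing in the labels says that same-rank pools came from separate cohorts, so p-values measure the spread between these pools.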

Additional observations from a re-analysis of the deposited data

Results flagged for a closer look

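In 8 of 162 groups of 4 or 5 libraries of 1 rank, the highest or lowest CPM of a member stood apart from the rest by Dixon's criterion, which chance alone meets in about 1 of 20 groups. For Hspa1b, rank 4 replicate 5 had 419 CPM in microglia, against 116 in the next library, and 229 in smooth muscle cells, against 87.5. Rank 1 replicate 1 had 8.37 CPM of Hspa1b in pericytes, with the next library at 166. For Dnajb1, rank 1 replicate 3 had 430 CPM in microglia (429.8 before rounding), against 83.7, and 131 in oligodendrocyte precursors, against 59.9. In smooth muscle cells, rank 1 replicate 5 had 1472 CPM of Hsp90aa1, against 727, and 2385 of Hspb1, against 1155. Rank 4 replicate 1 had the low value of Hsph1 in endothelial cells, 101 CPM, with the next library at 232.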

How the results depend on the processing

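The main results were recomputed under other settings, and the cause of a change was not tested unless stated. With the replicate number as a block, 3 pairs of a member and a class passed between ranks instead of 0, and the paired fit gave the 3 values in the report. They were Dnajb1 in astrocytes (-0.63) and Hsph1 in astrocytes (-0.55) and endothelial cells (-0.69); no other named pair of a member and a class changed its call with the block. Of 201 values of named pairs under alternatives, 198 kept direction and side of the threshold, the 3 others are these, and 0 reversed. Every count of such pairs called between ranks was 0 under the other settings, leaving out libraries included. With at least 50 cells per library, which leaves fewer classes, neighbouring classes told apart numbered 2 for Hspa1a, Hsp90aa1, Hsp90ab1 and Hspb1, 1 for Hspa8 and 0 for Hsph1. With stricter cell filters (1000 genes, 10% mitochondrial UMIs) they were 3 for Hsp90ab1, 1 for Hspa8 and Dnajb1 and 0 for Hspb1. Leaving out any single library gave 0 for Hsp90aa1, Hsp90ab1, Hspb1 and Hsph1, because 9 libraries cannot give a p small enough. The stricter filter left 24 pairs called against excitatory neurons, over 5 classes, and 36 of 42 called for the replicate number, with fewer tests in both; leaving out 1 library gave 43 to 52 against excitatory neurons. The averages over classes, none of which passed, ranged with 1 library left out from -0.51 to 0.35 for Hspa1a, -0.58 to 0.41 for Hspa1b, -0.29 to 0.13 for Hsp90aa1, -0.26 to 0.056 for Hsp90ab1, -0.20 to 0.075 for Hspa8 and -0.066 to 0.26 for Hspa5; each of these 6 changed sign in at least 1 such fit, which drops single libraries and not pairs. Within replicates 1 to 3 that of Hspa8 was 0.0069. Depth limits Hspa1b and, outside vessels, Hspb1, which had 0 UMIs in single libraries of several classes. These limits bear on all rank values: 5 pooled libraries per rank, the version bound to replicate numbers, and class names that rest on markers.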

Other observations

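Hspa1a was also read in the barcodes that the filters removed. Replicates 1 to 5 of rank 1 gave 19.0, 718, 716, 66.1 and 106 CPM there, and those of rank 4 gave 33.2, 809, 1130, 64.9 and 265. Replicates 2 and 3 were again the high ones in both ranks. Hsp90aa1 in the same barcodes was at 690, 514, 543, 1248 and 1511 CPM in rank 1 and 822, 500, 565, 1503 and 1777 in rank 4, with replicates 4 and 5 high. Among the 5 clusters that took no name, Hspa1a was at 897 CPM and Hspb1 at 1449 CPM in one of 121 cells led by haemoglobin genes that also scored on endothelial markers. One of 113 cells, which scored on both endothelial and pericyte markers (leading genes Rgs5, Gkn3 and Mgp), had 602 and 1947 CPM. A cluster of 85 cells led by Cd74 and other antigen presentation genes had 319 and 13.3 CPM, one of 1789 cells led by Oxt and Avp had 50.4 and 36.7, and a second haemoglobin cluster of 319 cells had 11.96 and 11.04.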
